A study of Homo sapiens with 6 samples.

Results

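The rows for STAU1, STAU2, ADAR, ILF2, DHX9, PRKRA, TARBP2, STRBP and EIF2AK2 were described, a set of proteins that bind double-stranded RNA or act in complexes that do. They were taken by gene symbol from the deposited intensity table, which held 9 of the 9 symbols among its 37879 rows. All 9 were detected on all 6 arrays and passed the filter on dim rows, as did 13285 rows in all. Total RNA came from HEK293T cells, an embryonic kidney line with the SV40 large T antigen, held in prometaphase by the microtubule poison nocodazole (50 ng/ml for 15 h per the labels; the methods give a longer time). In the control group (n = 3) the cells had received an empty vector, and in the Stau1 group (n = 3) a plasmid that codes for Staufen1 (its 55-kDa isoform, tagged with FLAG). Per the methods, transfection was transient, so the cells' own STAU1 gene was present in both groups. The methods list plasmids with a Rous sarcoma virus or a murine stem cell virus promoter and do not name the one used here. Each sample was hybridised to 1 Illumina bead array, and nothing says that samples of a group came from separate cultures, so p-values measure only the spread between these samples, which may be technical.

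Double-stranded RNA-binding domains recognise the shape of an RNA helix rather than a particular sequence, and the same fold serves proteins with very different tasks. Staufen proteins carry transcripts to their place in the cell and control their translation and decay, ADAR edits adenosine to inosine, TARBP2 and PRKRA assist Dicer, and EIF2AK2 (PKR) slows translation by phosphorylating eIF2 when it meets long helices. PRKRA activates EIF2AK2 and TARBP2 inhibits it, so that both Dicer partners also touch the kinase. ILF2 has no such domain of its own, and pairs through its DZF domain with proteins that have one.

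EIF2AK2 is also an interferon-induced gene, and the short stretch of its promoter that holds the core of an interferon-response element is shown here because other interferon-induced sensors of double-stranded RNA are set beside it below. The core, written as GAAA, any 2 bases and GAAA again, was searched on both strands of RefSeq promoter windows (GRCh38.p14; 250 bases before to 50 bases after each annotated start), and overlapping matches were counted once per window. It was found in 1255 of 35116 windows (3.57%). Windows were counted for 8 of the 9 genes (15 windows), and the core was present in 1 of these, EIF2AK2. STAU2 was left out of this count, so whether its promoter holds the core was not tested. Of 6 other sensors with a window, 3 held it (IFIH1, OAS3 and TLR3). Only matches on the gene's own strand were placed relative to the start. The lines below give 30 bases around the nearest of these in EIF2AK2, IFIH1 and OAS3, with the core in capitals.
EIF2AK2, chr2:37156967-37156996, minus strand: agtccaagggGAAAACGAAActgagaacca
IFIH1, chr2:162318686-162318715, minus strand: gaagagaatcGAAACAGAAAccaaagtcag
OAS3, chr12:112938452-112938481, plus strand: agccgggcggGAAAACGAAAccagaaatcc
The core began 6 bases before the annotated start in EIF2AK2, 21 bases before it in IFIH1 and 12 bases before it in OAS3. The letters in the capitals were the same in EIF2AK2 and OAS3. A match describes the sequence only.

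Across the arrays, the median intensity ranged from 83.0 to 102.2 and between 12730 and 13469 rows had a detection p under 0.05. Before normalization every one of the 9 rows was brightest on control replicate 3, and 8 of the 9 were dimmest on control replicate 1 (ILF2 on Stau1 replicate 1). Control replicate 3 also had the highest median intensity and the most rows detected, and control replicate 1 the fewest. How many of all kept rows had the same raw order was not counted, so it is not read as a trait of the 9. Markers of prometaphase (CCNB1, CDC20, PLK1, AURKA, BUB1, TTK, CENPE and CDC2) were detected on all arrays in 8 of 8 cases, with a summed intensity of 20472 to 32974 in control and 24741 to 28120 in Stau1 arrays. Of 5 markers of HEK293T cells, NEFL, NEFM and INA were detected on all arrays, PAX2 on 1 and NEFH on 0; their summed intensity was 3343 to 4901 in control and 3572 to 4830 in Stau1 arrays. Of 8 markers of blood, stromal and liver cells, 2 were detected on all arrays (COL1A1 among them) and the other 6 on 0, and the sum of the 8 was 805 to 917 in control and 747 to 925 in Stau1 arrays. The ranges of all 3 sums overlapped between the groups, and their part in the results was not tested.

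None of the 9 transcripts passed the threshold between Stau1 and control cells. In limma, fitted over all kept rows with Benjamini-Hochberg adjustment, 0 of 9 had an adjusted p under 0.05, as did 0 of 13285 rows (0%), and the adjusted p of each was 0.999. At an unadjusted p under 0.05 there was 1 of 9, ADAR, against 3.73% of all kept rows. The groups did not overlap for 2 of 9, STAU1 and ADAR, against 7.91% of all kept rows. Both were higher with Stau1, a pattern that 4.51% of all kept rows showed. Changes below are log2 differences of normalized levels, Stau1 minus control. Of the 9 changes, 6 were above 0 (49.4% of all kept rows), their median was 0.06 beside -0.00214 over all kept rows, and their median size was 0.08 beside 0.09. The median of the 9 changes was 0.00183 without control replicate 1, 0.0997 without control replicate 3 and 0.160 under median scaling, which put 8 of the 9 above 0. These are levels in bulk RNA, in which fewer cells carrying a transcript and less of it per cell cannot be told apart.

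**Figure D1:**
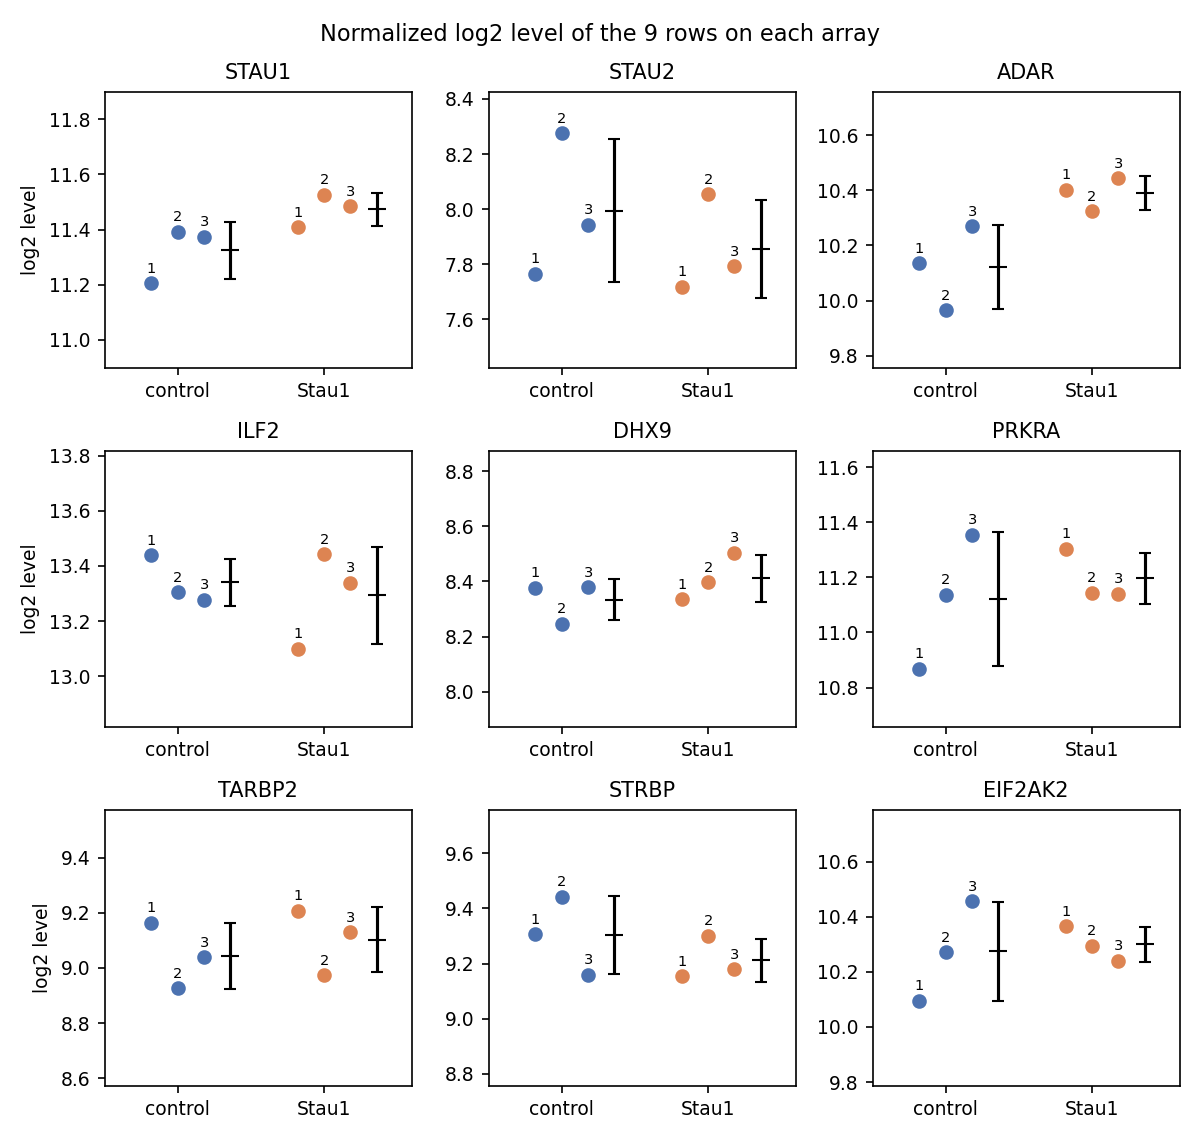
Normalized log2 level of each of the 9 rows on each array; points are arrays, numbered by replicate, and bars to their right give the mean and SD of each group (n = 3). Each panel spans 1 log2 unit; only in STAU1 and ADAR did all Stau1 arrays lie above all control arrays.

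The Staufen pair was examined first, since STAU1 is the gene on the plasmid. STAU1 lies on chromosome 20, and its row averages 3 probes whose positions were not analysed, so it may read the cells' own transcript, the plasmid's or both. Its raw intensity ran from 1890 to 3368. The normalized log2 level was 11.21, 11.39 and 11.37 in control and 11.41, 11.53 and 11.48 in Stau1 replicates 1 to 3. The lowest Stau1 array was 11.41 and the highest control array 11.39, so the groups did not overlap but nearly touched, and control replicate 1 was the low array. The means were 11.32 ± 0.10 (SD, n = 3) and 11.47 ± 0.06 (SD, n = 3), a change of 0.15 (SE 0.09, 95% interval -0.05 to 0.35, limma adjusted p = 0.999), or 1.11-fold with an interval of 0.966 to 1.27. The exact permutation test (two-sided) stood at its floor of p = 0.1, below which 3 arrays against 3 cannot go. The change was smallest, at 0.09, without control replicate 1.

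STAU2, the paralog known chiefly from neurons, lies on chromosome 8 and was read by 1 probe. Its log2 level was 7.77, 8.28 and 7.94 in control replicates 1 to 3 and 7.72, 8.05 and 7.79 in Stau1 replicates 1 to 3. Replicate 2 was the highest array of each group, and the ranges overlapped. The change was -0.14 (SE 0.16, 95% interval -0.49 to 0.22), or 0.908-fold (0.710 to 1.16), and it was 0.00176 without control replicate 2 and -0.0357 with the background inferred from all rows. STAU2 had the widest spread of the 9 rows in the control group, with an SD of 0.26.

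The 2 paralogs were then compared within each array, as the log2 difference STAU1 minus STAU2; this difference of 2 probe sets is no ratio of transcript numbers, and its change between groups is what is read. It was 3.44, 3.12 and 3.43 in control replicates 1 to 3 and 3.69, 3.47 and 3.69 in Stau1 replicates 1 to 3. All Stau1 arrays lay above all control arrays, by 0.03 at the nearest pair. The means were 3.33 ± 0.18 (SD, n = 3) and 3.62 ± 0.13 (SD, n = 3), a change of 0.29. The exact permutation test was again at its two-sided floor, p = 0.1, and at 0.2 after adjustment over the 2 ratios tested. The change combines 0.15 in the STAU1 row and -0.14 in the STAU2 row.

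**Figure D2:**
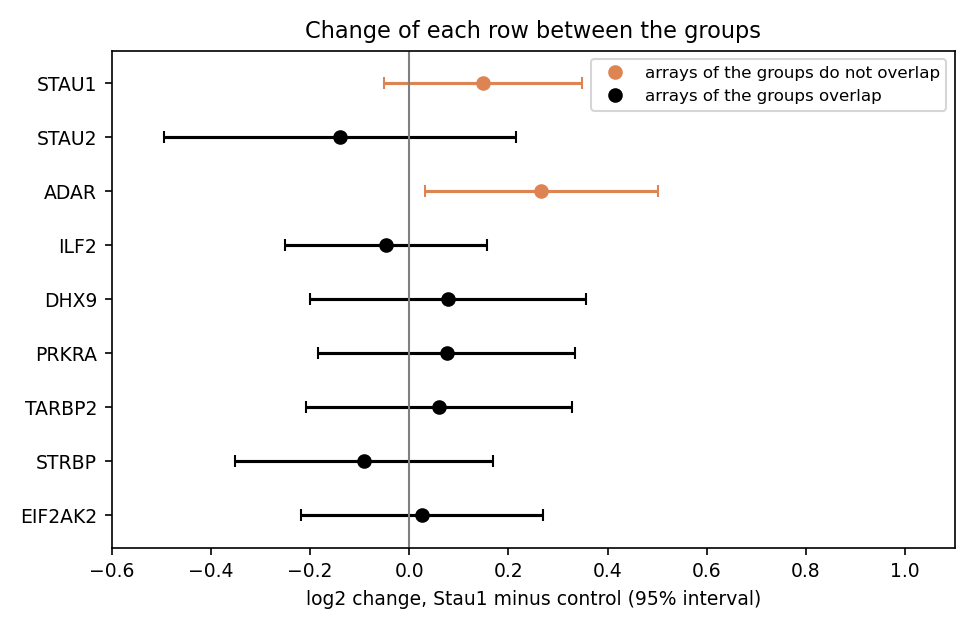
Log2 change of each row between Stau1 and control arrays (points) with its 95% interval from limma (bars; n = 3 per group). The intervals of 8 rows include 0, and that of ADAR runs from 0.03 to 0.50 before any adjustment for the number of rows tested.

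ADAR, the editing enzyme, gave the largest of the 9 changes. It lies on chromosome 1 and its row averages 3 probes. The log2 level was 10.14, 9.97 and 10.27 in control replicates 1 to 3 and 10.40, 10.32 and 10.44 in Stau1 replicates 1 to 3. The groups were 0.05 apart at their nearest arrays, and control replicate 2 was the low array. The means were 10.12 ± 0.15 (SD, n = 3) and 10.39 ± 0.06 (SD, n = 3), a change of 0.27 (SE 0.11, 95% interval 0.03 to 0.50), or 1.20-fold (1.02 to 1.42). The unadjusted limma p was 0.0293 and the adjusted one 0.999, and the exact permutation test gave p = 0.1. The unadjusted limma p was 0.122 without control replicate 2 (change 0.19), 0.0733 without Stau1 replicate 1 (0.26) and 0.114 without Stau1 replicate 3 (0.24). The size of the change exceeded that of 91.2% of all kept rows. Median scaling of the arrays in place of quantile normalization removed the gap between the groups for both ADAR and STAU1. The unadjusted limma p of ADAR was 0.134 under median scaling and 0.0505 with no variance trend. With array weights it was 0.00399 (limma adjusted p = 0.283). ADAR and STAU1 had the highest detection p-values of the 9 rows, up to 0.0196 and 0.0121, a value that is combined over the probes of a row.

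ILF2 and DHX9 are nuclear partners in several complexes: ILF2 (NF45) works in dimers with other DZF-domain proteins, and DHX9 (RNA helicase A) unwinds helices. ILF2, on chromosome 1 and read by 1 probe, was at log2 13.44, 13.31 and 13.28 in control and 13.10, 13.44 and 13.34 in Stau1 replicates 1 to 3. Both its lowest and its highest array were in the Stau1 group, and the change was -0.05 (95% interval -0.25 to 0.16). DHX9, also on chromosome 1 and averaged over 4 probes, was at 8.38, 8.25 and 8.38 in control and 8.34, 8.40 and 8.50 in Stau1 replicates 1 to 3. Its groups overlapped, with control replicate 2 lowest and Stau1 replicate 3 highest, and the change was 0.08 (95% interval -0.20 to 0.36), or 0.0314 to 0.117 with 1 array left out. STRBP, a DZF-domain protein first known from sperm precursors, lies on chromosome 9. It was at 9.31, 9.44 and 9.16 in control and 9.15, 9.30 and 9.18 in Stau1 replicates 1 to 3, with overlapping groups and a change of -0.09 (95% interval -0.35 to 0.17), or -0.162 to -0.0218 with 1 array left out.

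PRKRA (PACT) and TARBP2 (TRBP), the Dicer partners with opposite effects on EIF2AK2, lie on chromosomes 2 and 12. PRKRA was at log2 10.87, 11.14 and 11.36 in control replicates 1 to 3 and at 11.30, 11.14 and 11.14 in Stau1 replicates 1 to 3. The control arrays alone spanned both its lowest and its highest value, and the 3 Stau1 arrays lay between them. Its change of 0.08 (95% interval -0.18 to 0.33) depended on which control was kept: it was -0.05 without control replicate 1 and 0.19 without control replicate 3. TARBP2, averaged over 2 probes, was at 9.16, 8.93 and 9.04 in control and 9.21, 8.97 and 9.13 in Stau1 replicates 1 to 3. In both groups replicate 1 was highest and replicate 2 lowest, the ranges overlapped, and the change was 0.06 (95% interval -0.21 to 0.33). That change was 0.00182 without control replicate 2, 0.00807 without Stau1 replicate 1, 0.122 without control replicate 1 and 0.125 without Stau1 replicate 2.

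The balance of the Dicer partners was read in the same way as that of the paralogs. The log2 difference PRKRA minus TARBP2 was 1.70, 2.21 and 2.32 in control replicates 1 to 3 and 2.10, 2.17 and 2.01 in Stau1 replicates 1 to 3. The Stau1 arrays again fell inside the control range. The means were 2.08 ± 0.33 (SD, n = 3) and 2.09 ± 0.08 (SD, n = 3), a change of 0.02 (exact two-sided permutation test, p = 1). Without control replicate 1 it was -0.17.

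EIF2AK2, whose promoter stretch is printed above, lies on chromosome 2 and was read by 1 probe. Its log2 level was 10.10, 10.27 and 10.46 in control replicates 1 to 3 and 10.36, 10.29 and 10.24 in Stau1 replicates 1 to 3. As with PRKRA, control replicate 1 was lowest, control replicate 3 highest, and the Stau1 arrays lay between them. The means were 10.27 ± 0.18 (SD, n = 3) and 10.30 ± 0.06 (SD, n = 3), with a change of 0.03 (95% interval -0.22 to 0.27), or 1.02-fold (0.859 to 1.21). Without control replicate 1 the change was -0.06 and without control replicate 3 it was 0.12.

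The other sensors of double-stranded RNA were mostly not detected at a detection p under 0.05, though the intensity of OAS1 (90.9 to 124.8) overlapped that of IFIH1. Of 11 listed, all had a row and 4 were kept, whereas DDX58, DHX58, TLR3, OAS1, OAS2, OAS3 and OASL were detected on 0 of 6 arrays in either group. OAS3, with the same core letters as EIF2AK2, was thus not detected where EIF2AK2 was detected on every array. IFIH1 (MDA5), which senses long helices, was detected on 5 arrays, at 5.08, 5.99 and 5.84 in control and 5.99, 5.87 and 5.85 in Stau1 replicates 1 to 3. Control replicate 1 stood apart from the other 5 arrays, which lay within 0.15 of each other. Its change was 0.27 (SE 0.21, limma adjusted p = 0.999), and -0.01 without control replicate 1. The IFIH1 row was dim (intensity 90.5 to 142.4), and its change was 0.139 when no background was removed and 0.0133 when the background was inferred from all rows. Among the 4 kept sensors 0 passed the threshold, 3 were higher and 1 lower (49.4% of all kept rows were higher), and the median change was 0.09.

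The remaining lists were read as counts beside all kept rows. In each list 1 gene was picked for its lowest p, so a gap between its groups carries no weight of its own. Of 16 other proteins with a double-stranded RNA-binding or DZF domain, 11 were kept, and 0 passed the threshold. All 11 had a change above 0 (49.4% of all kept rows), from 0.01 to 0.29, with a median of 0.11. The count above 0 was 9 of 11 with array weights and 9 to 11 with 1 array left out. With no filter it was 12 of 16. Control replicate 1 was the lowest array for 6 of the 11 kept rows and control replicate 2 for 4, beside 25.5% and 20.1% of all kept rows. SON, a splicing factor of nuclear speckles, had the lowest p, at 9.04, 9.22 and 9.35 in control and 9.38, 9.54 and 9.48 in Stau1 replicates 1 to 3. Its groups did not overlap, and the change was 0.26 (SE 0.12, limma adjusted p = 0.999). ADARB1, the other catalytically active ADAR, was named after its values were seen: its groups did not overlap either, with a change of 0.29 (SE 0.15). SON and ADARB1 were the 2 of 11 kept rows without overlap, beside 7.91% of all kept rows.

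**Figure D3:**
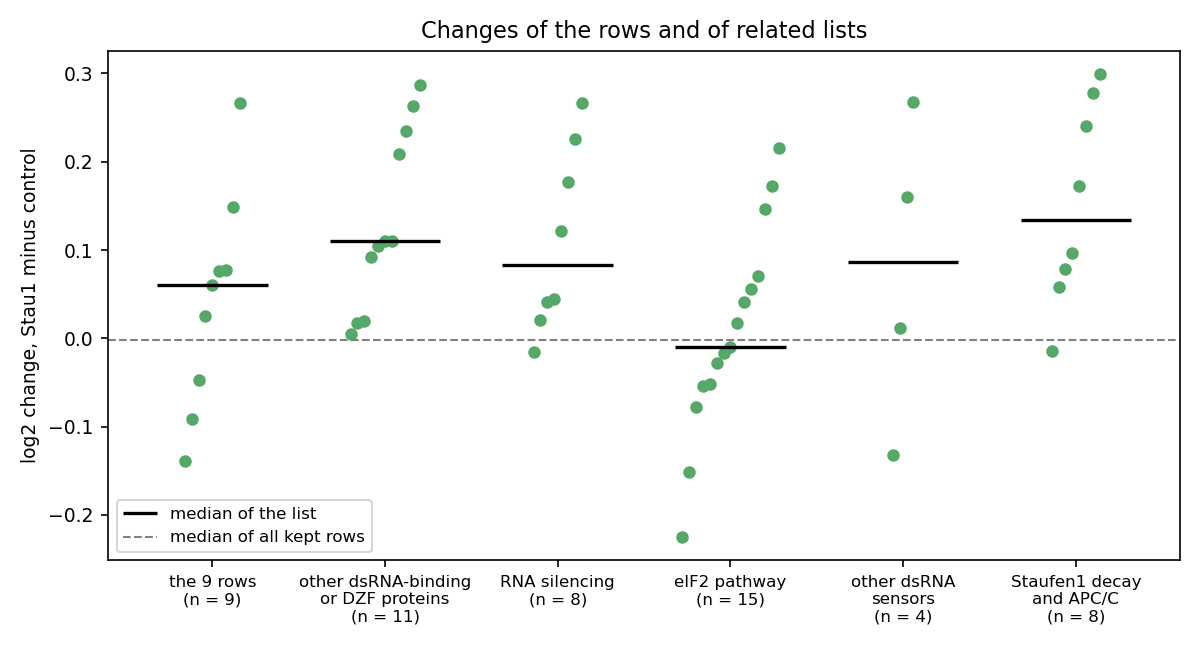
Log2 change between Stau1 and control of each kept row (points) among the 9 rows and in 5 related lists, with the median of each list (solid bars) and of all kept rows (dashed line). The medians run from -0.00987 in the eIF2 pathway to 0.13 among Staufen1 partners in decay and APC/C regulators.

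In the RNA silencing list around TARBP2 and PRKRA, 8 of 10 rows were kept, with a median of 0.08 and 0 past the threshold. Of these, 7 were higher and 1 lower, beside 49.4% higher among all kept rows. How this count moved with 1 array left out was not tested. EIF2C2 (AGO2), the slicing Argonaute, was at 10.11, 9.85 and 10.01 in control and 10.25, 10.23 and 10.29 in Stau1 replicates 1 to 3. The groups did not overlap, which held for 1 of the 8 kept rows, beside 7.91% of all kept rows. The change was 0.27 (SE 0.11, limma unadjusted p = 0.0258, adjusted p = 0.999). In the eIF2 pathway around EIF2AK2, all 15 rows in the table were kept (EIF2B3 had no row under its symbol), 7 were higher and 8 lower, the median was -0.00987, and 0 passed the threshold. EIF2AK4 (GCN2), the eIF2 kinase that senses amino acid shortage, was at 7.99, 8.01 and 7.95 in control and 8.30, 8.12 and 8.17 in Stau1 replicates 1 to 3. Its groups did not overlap, which held for 1 of the 15 kept rows. The change was 0.22 (SE 0.13, limma adjusted p = 0.999), and 0.0592 with the background inferred from all rows.

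Among 8 partners of Staufen1 in decay and regulators of the anaphase-promoting complex (APC/C), a ubiquitin ligase, all were kept and 0 passed the threshold. Of these, 7 were higher and 1 lower, beside 49.4% higher among all kept rows, and the median was 0.13. How this count moved with 1 array left out was not tested. FZR1 (Cdh1), the APC/C activator of late mitosis, was at 5.61, 5.49 and 5.57 in control and 5.72, 5.79 and 6.06 in Stau1 replicates 1 to 3. Its groups did not overlap, which held for 1 of the 8 rows, beside 7.91% of all kept rows. The change was 0.30 (SE 0.14, limma adjusted p = 0.999). The FZR1 row was also dim (intensity 105.5 to 145.8), and its change was 0.143 with no background correction, 0.0152 with the background inferred from all rows, 0.412 with array weights and 0.197 without Stau1 replicate 3. Of the kept markers, 4 of prometaphase were higher and 4 lower, 1 of HEK293T cells was higher and 2 lower, and 2 of other cell types were lower. Within these lists the lowest p was that of CDC2 (CDK1), the mitotic kinase, with a change of -0.30 (SE 0.15), of INA, a neurofilament protein, with 0.08 (SE 0.10), and of COL1A1, a collagen, with -0.26 (SE 0.19; -0.0137 when all rows gave the background). The groups overlapped for all 3 and 0 markers passed the threshold.

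The rows whose pattern over the 6 arrays was most like that of STAU1 were not among the 9. They were HS.561603 (Pearson's r 0.997, Spearman's rho 0.943), C1ORF84 (0.991 and 0.943) and CPEB4, a cytoplasmic polyadenylation protein (0.990 and 0.943). Without the 2 arrays on which STAU1 was farthest from its median, control replicate 1 and Stau1 replicate 2, r was 0.983, 0.970 and 0.949. Under median scaling with all arrays it was 0.982, 0.915 and 0.893. C1ORF84 and CPEB4 were dim rows, with mean log2 levels of 5.12 and 5.74 in control and 5.21 and 6.14 in Stau1 arrays. They were the top of 13285 rows ranked by likeness, 41 of which had an r above 0.95, so these values are a description with no test. The r of STAU2 with STAU1 was 0.27, and the other 7 rows lay between -0.36 and 0.52. These values rested on the same 2 arrays. Without them r was -0.46 for STAU2, -0.59 for PRKRA, -0.72 for EIF2AK2, 0.44 for TARBP2 and 0.30 for ILF2, each of the opposite sign. It was 0.77 for DHX9, 0.58 for ADAR and -0.25 for STRBP, each of the same sign.

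The spread between arrays was set against the error over beads of the same type within an array. That error was 1.78% to 6.03% of the intensity, or 0.04 to 0.07 on the log2 scale as a median per row. The SD between arrays of a group was 1.16 times as large in DHX9 and 3.87 times as large in STAU2, with the other 7 rows between. The bead error was taken from raw intensities and the SD from background-corrected, normalized levels. These scales are unlike, and how far this moved the ratios was not tested. The SD was larger in the control than in the Stau1 group in 7 of the 9 rows (68.4% of all kept rows), the exceptions being ILF2 and DHX9.

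**Figure D4:**
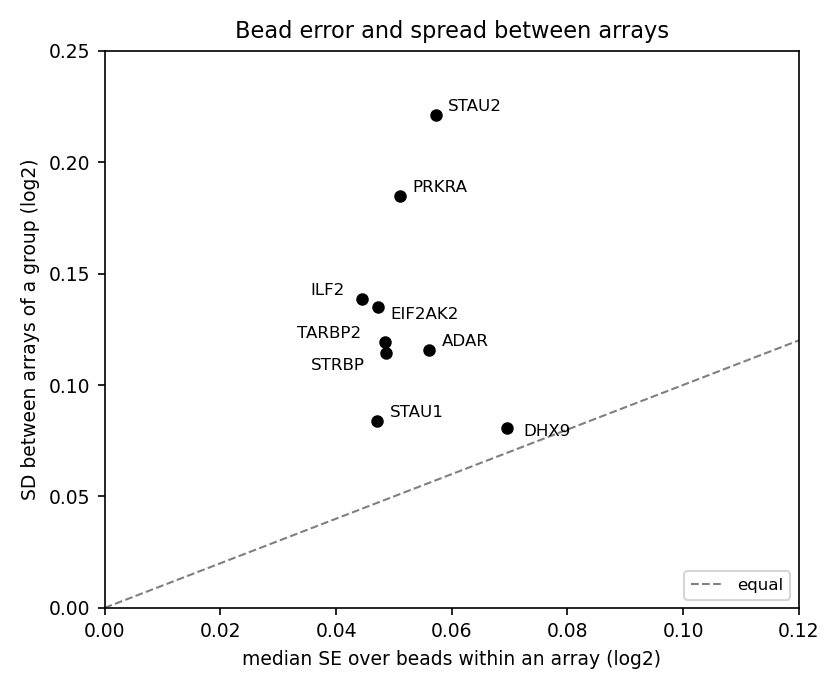
Median standard error over beads within an array (x axis, log2) and SD between arrays of a group (y axis, log2) for each of the 9 rows; the dashed line marks equal values. All 9 rows lie above the line, DHX9 nearest to it and STAU2 farthest. The x axis comes from raw intensities and the y axis from normalized levels, so the line is only a guide.

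The counts of rows past a threshold depended on 1 control array. Leaving out control replicate 3 raised the number of rows past the adjusted threshold from 0 to 39 of 13285 (0.294%), and 0 of the 9 were among them. At an unadjusted p under 0.05 it gave 12.8% of all kept rows and again ADAR alone among the 9, with a change of 0.34 (SE 0.11, limma adjusted p = 0.240). The groups then did not overlap for 4 of the 9 (STAU1, ADAR and PRKRA higher, STRBP lower with Stau1), beside 29.1% of all kept rows. With 1 control array fewer, groups are less likely to overlap, so this share is not comparable with the one given above. STAU1 had a change of 0.18 (SE 0.10, limma adjusted p = 0.499) in that fit and PRKRA of 0.19 (SE 0.11).

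**Figure D5:**
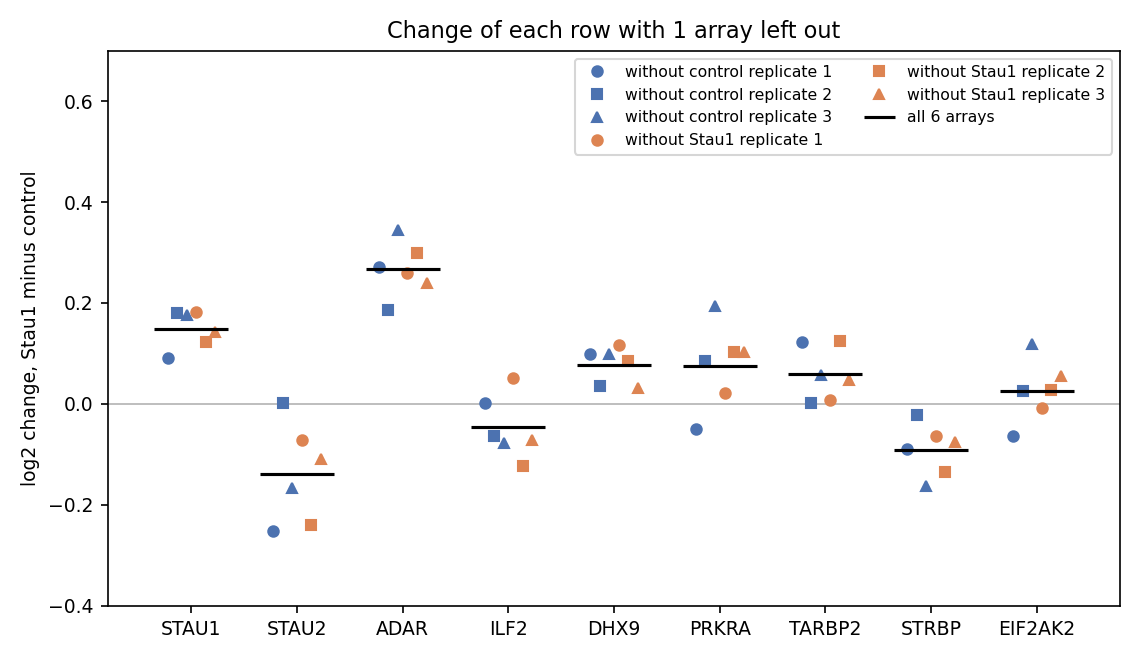
Log2 change between Stau1 and control for each of the 9 rows with all 6 arrays (black bars) and with 1 array left out (symbols, coloured by the group of the array left out). STAU1, ADAR, DHX9 and TARBP2 stay above 0 and STRBP below 0 in all 6 cases, whereas STAU2, ILF2, PRKRA and EIF2AK2 change sign in at least 1.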

How the data were processed

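Total RNA from 6 samples was measured on Illumina HumanWG-6 v3 arrays. Per the file headers, the authors exported intensities per gene from BeadStudio with neither background subtraction nor normalization. A detection p-value, the standard error over beads (an intensity) and the mean bead count were deposited with them. All value columns were mapped to samples (0 left out). The fraction in the mean bead count gave the number of probes in a row. In limma 3.58.1 (R 4.3.3), a normexp background correction (offset 16, background inferred from the detection p-values of the 30932 rows of 1 probe), quantile normalization and log2 were applied. Rows were kept where at least 3 of 6 arrays had a detection p under 0.05. This p is combined for rows of several probes, so that a bright row can miss the filter: RNASEN (DROSHA) was detected on 0 arrays. The groups were compared by lmFit and eBayes with a variance trend over all kept rows; the script was tested on simulated data.

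The 9 genes and the lists were chosen with earlier results of these data known. Named were the 9 genes, in each list the genes past the threshold or else the kept gene with the lowest unadjusted p, and the 3 rows most like STAU1. Of 82 listed entries 81 had a row, 9 of them under an older symbol. The values of 2 listed genes are not reported here. Replicate numbers were not read as pairs: deviations of same-numbered arrays correlated at 0.02, 0.26 and -0.14. Alternatives changed the background (none, offset 50, from all rows), the normalization (cyclic loess, median scaling), the filter (none, or every array under 0.01), the model (no trend, weights per array, the replicate as a block), the test (the methods' t-test, two-sided) and the arrays (each left out). Each group held 3 arrays, which limits the precision. Figures were drawn with matplotlib 3.10.9.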

Additional observations from a re-analysis of the deposited data

How the results depend on the processing

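With all 6 arrays, 0 rows passed an adjusted p of 0.05 under every alternative run, the replicate block included (STAU1 change 0.15, limma adjusted p = 0.985), and 0 of the 9 genes did so; 1 did at an unadjusted p. Leaving out 1 array gave 0 to 39 rows, the 39 without control replicate 3. The count of genes whose groups do not overlap was 0 under median scaling, 0 where every array had to be under a detection p of 0.01, which removes STAU1 and ADAR, and 2 to 4 with 1 array left out, the 4 without control replicate 3. Median scaling moved the median change of all kept rows from -0.00214 to 0.0679, the change of ILF2 to 0.0126, that of STRBP to 0.00750 and the r of STAU2 and TARBP2 to 0.345. Array weights moved EIF2AK2 to -0.0165. With 1 array left out, changes ran from -0.123 to 0.0518 for ILF2, -0.0496 to 0.195 for PRKRA, -0.0640 to 0.118 for EIF2AK2, -0.252 to 0.00176 for STAU2, -0.0120 to 0.448 for IFIH1, 0.0911 to 0.182 for STAU1 and 0.186 to 0.344 for ADAR. The PRKRA minus TARBP2 change ran from -0.172 to 0.137 and the STAU1 minus STAU2 change from 0.179 to 0.362. The cause of these shifts was not tested. ADAR kept its direction under every alternative that kept its row, and so did STAU1, DHX9 and TARBP2. DDX58, DHX58, TLR3 and the OAS rows were detected on 0 arrays and did not pass the filter, so no change was read for them.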

Other observations

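Among the 36 pairs of the 9 rows, PRKRA and EIF2AK2 had the highest Pearson's r over the 6 arrays (0.978, Spearman's rho 0.943) and STAU2 and TARBP2 the lowest (-0.969, rho -1). The second turned to 0.34 under median scaling. The median over the pairs was -0.0872 and 17 of 36 were above 0. The arrays are shared by all pairs and the 2 named were picked for their values, so these are given as a description with no test.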
